A study of Mus musculus with 4 samples.

Results

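The 9 genes described here are the Notch receptors Notch1, Notch2, Notch3 and Notch4, the ligands Jag1, Jag2 and Dll1, and the target genes Hes1 and Hey1. In the files they are ENSMUSG00000026923 (Notch1), ENSMUSG00000027878 (Notch2), ENSMUSG00000038146 (Notch3), ENSMUSG00000015468 (Notch4), ENSMUSG00000027276 (Jag1), ENSMUSG00000002799 (Jag2), ENSMUSG00000014773 (Dll1), ENSMUSG00000022528 (Hes1) and ENSMUSG00000040289 (Hey1). They were chosen by symbol, 9 of the 32285 genes counted, and all 9 had UMIs in every library. They were measured in mammary tumors of 4 mice aged 17 to 18 weeks by single-cell RNA sequencing with the 10x Genomics 3′ kit. The kit counts unique molecular identifiers (UMIs), 1 per captured RNA molecule. The 2 Cre- mice (replicates 1 and 3) were MMTV-Cre-; Frmd8fl/fl; PyMT and the 2 Cre+ mice (replicates 2 and 4) were MMTV-Cre+; Frmd8fl/fl; PyMT. All 4 mice thus carried the floxed Frmd8 alleles and the PyMT oncogene. The MMTV promoter, active in mammary epithelium, drives both the oncogene and Cre, so the deletion was aimed at epithelial cells. Each library came from 1 mouse, and its cells were sorted by flow cytometry before capture.

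Notch receptors are membrane proteins that are cut when a ligand on a neighboring cell binds and pulls on them. The released intracellular domain enters the nucleus, joins the DNA-binding protein Rbpj and switches on genes such as Hes1 and Hey1, which encode repressors of transcription. In blood vessels Notch signaling is known for arterial identity and for restraining sprouting, in the mural cells around vessels for Notch3 and Jag1, and in the mammary gland for luminal fate.

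The libraries kept 23572 barcodes with at least 1000 UMIs and at most 20% mitochondrial UMIs, 4922 to 7123 per library, with 107848230 to 134882211 UMIs. Frmd8 was counted at 25.1 and 24.7 CPM (UMIs of a gene per 1000000 UMIs of the same cells) in the Cre- and at 11.3 and 12.9 CPM in the Cre+ libraries. By class, Frmd8 was at 24.3 and 23.4 against 5.76 and 10.8 CPM in luminal cells. Basal cells had 25.9 and 28.6 against 4.67 and 3.08 CPM. T/NK cells had 62.9 and 58.6 against 31.5 and 33.9 CPM, and macrophages 25.1 and 24.1 against 19.7 and 14.0 CPM. Endothelial cells had 31.3 and 35.5 against 29.1 and 29.5 CPM. Mural cells had 36.4 and 26.5 against 28.8 and 32.1 CPM, and fibroblasts 16.4 and 18.6 against 14.8 and 13.3 CPM. Any pair of libraries shared 6 to 16 barcodes. Cells were classed by how many of 8 markers per class they held, from lists without any of the 9 genes, and each class name means cells that resemble that type by these markers. There were 9670 luminal, 293 basal, 585 endothelial, 235 mural, 1273 fibroblast, 6605 macrophage, 453 neutrophil, 1231 T/NK and 126 B cells. Another 224 epithelial cells stayed unresolved and 2877 cells unassigned. The endothelial markers summed to 6862 to 8369 CPM in endothelial and 3.75 to 7.72 CPM in luminal cells. Cre+ replicate 4 was deposited with all barcodes and made with an older Cell Ranger than the other libraries, so these differences and that mouse cannot be told apart.

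**Figure D1:**
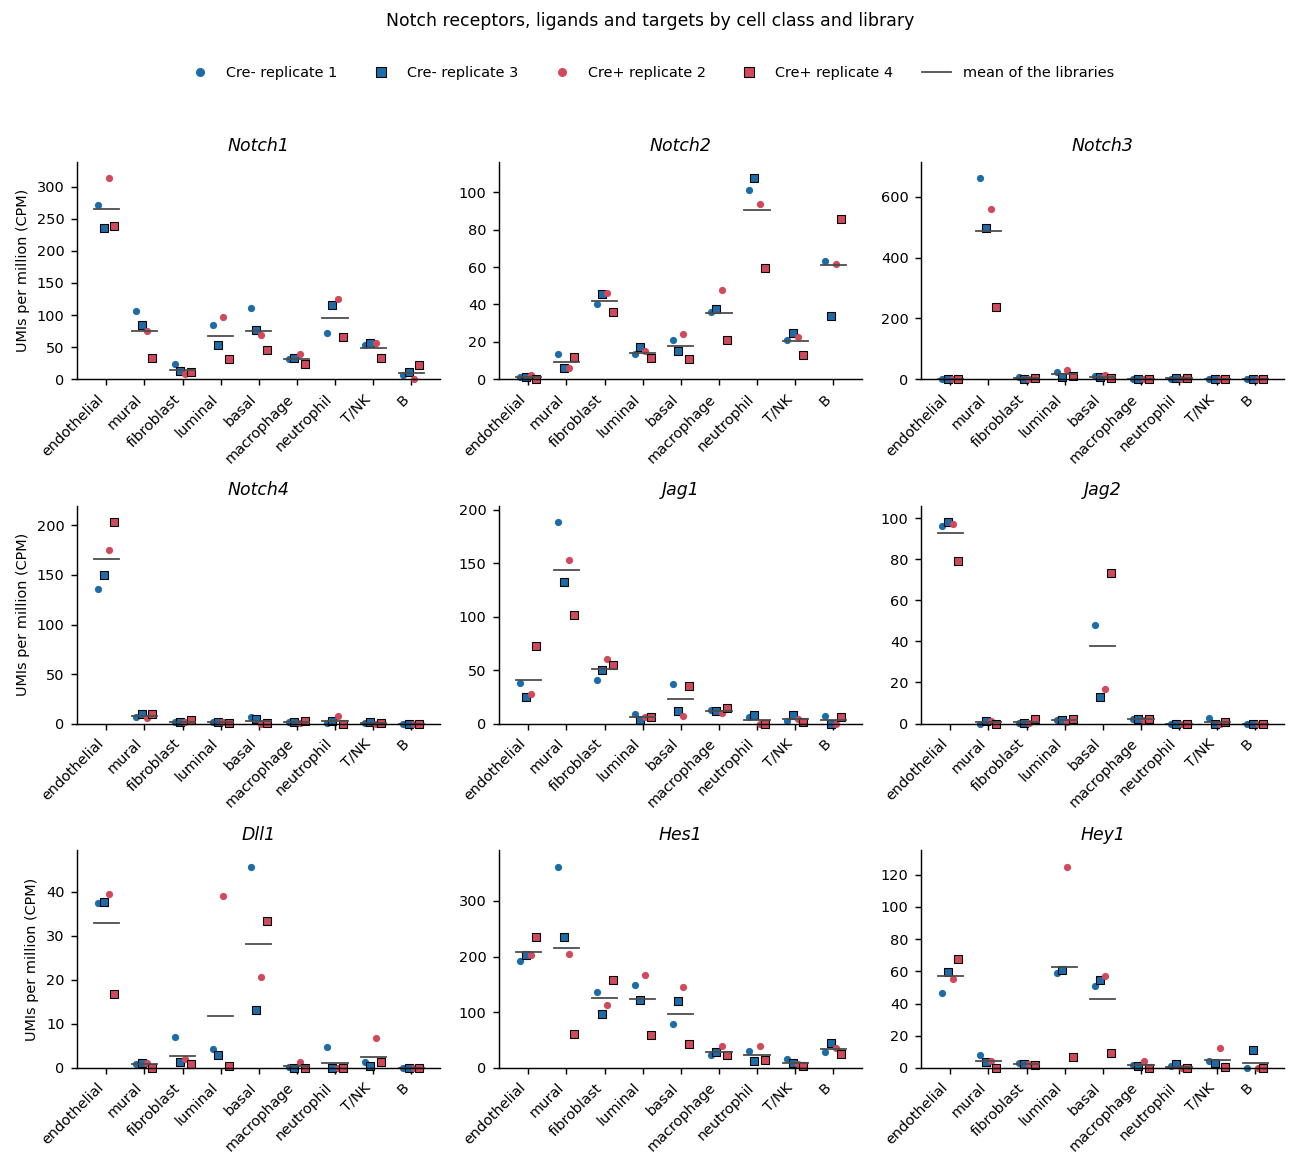
Level of each of the 9 genes in CPM (linear axes from 0, each with its own range) in 9 cell classes. Each point is 1 library (blue Cre-, red Cre+, squares for replicates 3 and 4) and the line is the mean of 4 libraries. Notch3 is highest in mural cells, Notch1, Notch4 and Jag2 in endothelial cells, and Notch2 is lowest in endothelial cells.

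The 4 receptors differed in the class where they were highest. Notch3 was counted in mural cells at 662, 497, 560.4 and 237 CPM in Cre- replicates 1 and 3 and Cre+ replicates 2 and 4, the order used throughout. Luminal cells, the next class, had 23.2, 8.04, 29.0 and 11.3 CPM. Every mural value lay above every luminal value, with a ratio of the means of 27.4. Endothelial cells, the neighbors of mural cells in the vessel wall, gave 4, 0, 4 and 0 Notch3 UMIs. When each cell was thinned to 1000 UMIs, 46.1, 39.3, 43.6 and 23.9% of mural cells held a Notch3 UMI, against 0, 0, 0.719 and 0% of endothelial cells. Without thinning the shares were 78.3 to 96.4% and 0 to 2.88%, at median depths of 13153 to 18968 UMIs in mural and 5972 to 14594 UMIs in endothelial cells. Cre+ replicate 4 was the lowest of the mural values. In that library the mural markers summed to 6942 CPM in mural cells (14700 to 16960 in the others) and the fibroblast markers to 6378 CPM (2117 to 2837 in the others). Their part in the lower level was not tested.

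Notch4, a receptor known from endothelium, was counted in endothelial cells at 136, 149, 175 and 203 CPM. Mural cells, the next class, had 7.11, 9.21, 5.76 and 10.0 CPM, and the ranges did not overlap (ratio of the means 20.7). After thinning, 12.9, 15.2, 19.4 and 21.7% of endothelial cells and 0.0429 to 0.239% of luminal cells held a Notch4 UMI (64.0 to 75.7% and 1.48 to 4.80% without thinning, with luminal median depths of 12241 to 21866 UMIs). Endothelial cells were 2.48% of all kept cells and held 68.7, 69.8, 70.1 and 50.4% of the Notch4 UMIs of the classed cells.

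The upstream sequences of Notch3 and Notch4 are shown because these receptors had the largest ratios between their highest and next class. They are the 250 bases before the RefSeq start on GRCm38.p6, 5′ to 3′ on the gene's strand, at chr17:32166891-32167140 (minus strand) for Notch3 and chr17:34564045-34564294 (plus strand) for Notch4. Capitals mark GC boxes (GGGCGG on either strand), the binding motif of Sp1-type factors. This motif was not fixed in advance.
Notch3: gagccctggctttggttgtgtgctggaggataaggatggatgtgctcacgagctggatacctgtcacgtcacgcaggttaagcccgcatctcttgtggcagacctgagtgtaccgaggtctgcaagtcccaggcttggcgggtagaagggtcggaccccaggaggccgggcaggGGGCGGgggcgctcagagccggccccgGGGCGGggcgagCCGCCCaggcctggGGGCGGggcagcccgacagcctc
Notch4: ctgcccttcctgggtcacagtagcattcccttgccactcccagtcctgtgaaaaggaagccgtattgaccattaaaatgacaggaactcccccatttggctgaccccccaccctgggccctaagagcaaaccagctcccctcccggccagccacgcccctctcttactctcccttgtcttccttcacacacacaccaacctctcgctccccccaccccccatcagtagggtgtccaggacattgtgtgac

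The Notch3 window held 4 GC boxes and 68.8% G or C, the Notch4 window 0 and 58.4%. The windows of Notch1, Notch2 and Jag2 held 5 GC boxes each, of which a pair in Jag2 overlapped, and those of Jag1 and Dll1 held 0. Of 32851 windows of this length, 32.7% held a GC box, and their median G or C content was 52.4%. No GENCODE M21 transcript started at the RefSeq start of Notch3. RefSeq windows were found for 7 of the 9 genes, all but Hes1 and Hey1. TGGGAA, the core bound by Rbpj, and CCGGAA, a longer form of the site of ETS factors, were searched on both strands. Neither was in any of these windows, and 21.6% and 12% of all windows held them. The shorter ETS core, GGAA, was not searched for. The Notch4 window printed above holds it, so the search for CCGGAA does not show that ETS sites are absent. These counts describe the letters only.

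Notch1 was counted in every class. Endothelial cells had 271, 236, 313 and 239 CPM, above the range of every other class. Neutrophils came next (65.1 to 125 CPM), and overlapped with basal (45.2 to 111), mural (33.1 to 106) and luminal cells (31.6 to 97.5). Fibroblasts (8.89 to 24.4 CPM) and B cells (0 to 22.2 CPM) had the lowest means. Empty droplets of Cre+ replicate 4, which hold free RNA, had Notch1 at 20.5 CPM.

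Notch2 was lowest where Notch1 and Notch4 were highest. Endothelial cells held 3, 4, 4 and 0 Notch2 UMIs, or 1.05, 1.28, 2.33 and 0 CPM, where the 0 allows up to 3.16 CPM. That was below the range of every other class. Neutrophils had 101, 108, 94.0 and 59.5 CPM and overlapped with B cells (33.9 to 85.8 CPM), and these with fibroblasts (36.0 to 46.1 CPM) and macrophages (21.1 to 47.8 CPM). The empty droplets of Cre+ replicate 4 had Notch2 at 25.1 CPM.

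Among the ligands, Jag1 was highest in mural cells, at 188, 132, 153 and 101 CPM. Fibroblasts had 41.0, 49.9, 60.4 and 54.6 CPM and did not overlap with mural cells. Endothelial cells had 37.9, 25.0, 28.0 and 72.7 CPM and overlapped with fibroblasts. Luminal cells were at 3.02 to 9.13 CPM, and the empty droplets of Cre+ replicate 4 had Jag1 at 13.4 CPM.

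Jag2 was counted in endothelial cells at 96.2, 98.0, 97.3 and 79.0 CPM. Basal cells followed at 47.7, 12.8, 16.8 and 73.1 CPM, without overlap. Every other class was at or below 2.92 CPM, and mural cells gave 2 Jag2 UMIs in all.

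Dll1, a Delta-like ligand, had 37.6, 37.8, 39.6 and 16.8 CPM in endothelial and 45.7, 13.1, 20.6 and 33.3 CPM in basal cells, which overlapped. Luminal cells had 4.41, 2.90, 39.1 and 0.422 CPM, so that Cre+ replicate 2 stood far above the other libraries. In luminal cells of that library 5.33% held a Dll1 UMI after thinning, against 0.141% to 0.900% in the others (34.1% and 0.879% to 8.66% without thinning).

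The targets were more widely spread. Hes1 was counted in mural cells at 362, 236, 204 and 61.2 CPM and in endothelial cells at 191, 203, 202 and 236 CPM. The mural values lay on both sides of the endothelial ones, with Cre+ replicate 4 lowest. Fibroblasts (97.6 to 157 CPM), luminal cells (59.8 to 166 CPM) and basal cells (43.8 to 145 CPM) overlapped with one another and were below all endothelial values. T/NK cells had the lowest mean (2.86 to 16.7 CPM), and the empty droplets of Cre+ replicate 4 had Hes1 at 37.1 CPM.

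Hey1 was present in luminal, endothelial and basal cells. Luminal cells had 59.2, 61.0, 125 and 6.52 CPM, endothelial cells 46.7, 59.5, 55.4 and 67.4 CPM and basal cells 50.7, 54.9, 57.0 and 9.23 CPM. In Cre+ replicate 4 the luminal and basal values were the lowest of the 4 and the endothelial value the highest. Mural cells held 9, 3, 4 and 0 Hey1 UMIs, or 8.00, 3.45, 4.61 and 0 CPM.

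Classes were compared on UMIs summed per library and class, with the library as a block. The sums of all classes, also B cells, T/NK cells and neutrophils, entered a single fit with a common spread per gene. That fit takes the library effect as equal in all classes, so its p-values do not measure the spread of each paired difference over the mice. The comparison of hormone-sensing cells below had its own fit. The quasi-likelihood test of edgeR was used, with p-values adjusted over all 13464 genes tested. In endothelial against luminal cells 53.2% of all genes passed. Of the 9 genes, 6 were higher in endothelial cells, 2 were lower and Hey1 did not pass, and their median log2 fold change was 2.03 (-0.11 over all genes). Notch4 (6.80 ± 0.41 SE, adjusted p = 6.07e-14) and Jag2 (5.85 ± 0.46, adjusted p = 7.47e-11) differed most on the log2 scale. Jag1 (2.61 ± 0.38), Dll1 (2.53 ± 0.69) and Notch1 (2.03 ± 0.26) were also higher. Notch3 (-4.26 ± 0.52, adjusted p = 6.78e-08) and Notch2 (-3.54 ± 0.35, adjusted p = 5.21e-10) were lower. Hes1 passed at 0.81 ± 0.31 (adjusted p = 0.0284) and missed the threshold in 6 of 12 alternatives, with 0.45 and adjusted p = 0.107 without Cre+ replicate 4. Dll1 (adjusted p = 0.00289) missed it without Cre- replicate 3 (adjusted p = 0.0813) and without the library block (0.110). Hey1 had 0.45 ± 0.43 (adjusted p = 0.403), and -0.50 without Cre+ replicate 4.

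In mural against luminal cells 49.6% of all genes passed. Of the 9 genes 3 were higher, 2 were lower and 4 did not pass, with a median log2 fold change of 0.08 (-0.18 over all genes). Notch3 (4.75 ± 0.32, adjusted p = 1.05e-12), Jag1 (4.47 ± 0.39, adjusted p = 6.21e-11) and Notch4 (2.36 ± 0.51, adjusted p = 0.000372) were higher in mural cells. Endothelial markers, whose class holds most Notch4, summed to 86.2, 157, 94.5 and 199 CPM in mural, 3.75 to 7.72 CPM in luminal and 16.6 to 24.7 CPM in fibroblast cells, and their part in the Notch4 calls of mural cells was not tested. Hey1 was lower (-3.77 ± 0.62, adjusted p = 7.76e-06). Notch2 passed at -0.67 ± 0.28 (adjusted p = 0.0467) and missed the threshold in 8 of 12 alternatives, with adjusted p of up to 0.318. Notch1 (0.08 ± 0.26), Hes1 (0.67 ± 0.31), Jag2 (-1.82 ± 1.24) and Dll1 (-3.31 ± 1.40) did not pass. Dll1, with 3 mural UMIs, passed in 6 of 12 alternatives, among them without Cre+ replicate 4 (-3.53, adjusted p = 0.0411). Hes1 passed without Cre+ replicate 4 (0.81, adjusted p = 0.00625). With DESeq2 the median of all genes moved to 0.41 and the share of calls that were higher from 43.7% to 55.0%, and none of the 5 called members turned its direction.

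**Figure D2:**
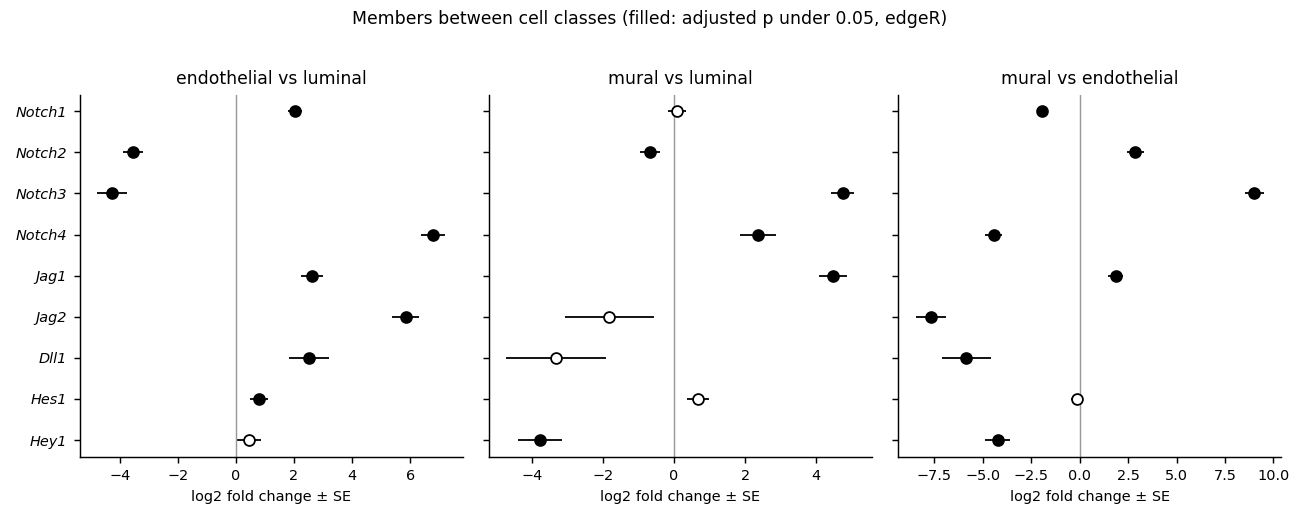
Log2 fold changes of the 9 genes in 3 comparisons of classes (edgeR, horizontal bars ± SE). Filled points passed an adjusted p of 0.05. In mural against endothelial cells Notch3, Notch2 and Jag1 lie on the mural side and Notch1, Notch4, Jag2, Dll1 and Hey1 on the endothelial side.

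In mural against endothelial cells 34.0% of all genes passed, and of the 9 genes 3 were higher in mural cells and 5 lower, with a median log2 fold change of -1.95 (-0.07 over all genes). Notch3 (9.01 ± 0.48, adjusted p = 2.66e-14), Notch2 (2.87 ± 0.44, adjusted p = 3.57e-06) and Jag1 (1.86 ± 0.38, adjusted p = 0.000206) were higher in mural cells. Notch4 (-4.44 ± 0.44, adjusted p = 3.21e-09), Hey1 (-4.22 ± 0.65, adjusted p = 4.04e-06) and Notch1 (-1.95 ± 0.27, adjusted p = 6.86e-07) were lower. Jag2 and Dll1 were lower too (adjusted p = 1.97e-08 and 0.000448). As mural cells held only 2 and 3 of their UMIs, the pooled counts give their size, with Jag2 at 184 times (95% counting interval 50.7 to 1520) and Dll1 at 46 times (15.6 to 224) the mural level in endothelial cells. Hes1 did not pass (-0.14 ± 0.32, adjusted p = 0.795). The 8 calls held in all 12 alternatives. With DESeq2 the share of calls over all genes that were higher in mural cells moved from 45.9% to 56.8%.

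Against fibroblasts, whose markers are also seen in the mural class, 30.1% of all genes passed. Of the 9 genes 4 were higher in mural cells and 1 was lower, with a median log2 fold change of 0.53 (-0.15 over all genes). Notch3 (6.95 ± 0.38, adjusted p = 6.55e-14) and Notch1 (2.11 ± 0.28, adjusted p = 6.26e-07) were higher and Notch2 was lower (-2.40 ± 0.27, adjusted p = 3.87e-08), in all alternatives run. Jag1 (1.17 ± 0.36, adjusted p = 0.0116) and Notch4 (1.82 ± 0.55, adjusted p = 0.0123) missed the threshold without Cre- replicate 1 (adjusted p = 0.136 and 0.0659), and Notch4 without Cre- replicate 3 (0.0862) and with only cells under 30000 UMIs and 5000 genes (0.0514). Hes1 had 0.37 ± 0.32 and passed without Cre+ replicate 4 (0.95, adjusted p = 0.00328).

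Of 46 other genes of the pathway 39 were tested. In endothelial against luminal cells 19 were higher and 5 lower, or 24 of 39 where 53.2% of all genes passed, with a median log2 fold change of 0.42 (-0.11 over all genes). Dll4, a ligand known from sprouting vessels, had 229, 216, 310.0 and 317 CPM in endothelial and 0.172 to 2.30 CPM in luminal cells (8.34 ± 0.43, adjusted p = 2.04e-15). Nrarp, a target that restrains the pathway, had 128, 189.8, 272 and 218 CPM in endothelial and 2.20 to 5.0 CPM in luminal cells (5.78 ± 0.48, adjusted p = 1.51e-11). Of the 5 glycosyltransferases that modify the receptors 4 were higher, among them Mfng (8.49 ± 0.33) and Lfng (2.86 ± 0.43), and Rfng was lower (-0.77 ± 0.26), with adjusted p of 4.33e-19, 1.52e-06 and 0.0118. Neurl1b, a ligase for the uptake of ligands, was higher (6.42 ± 0.34, adjusted p = 5.08e-15). The γ-secretase subunit Aph1c (-2.39 ± 0.56) and Fbxw7, a ligase that marks the intracellular domain for degradation (-0.89 ± 0.21), were lower, with adjusted p of 0.000643 and 0.000549. Rbpj, at 17.9 to 33.8 CPM in endothelial cells, did not pass (-0.40 ± 0.26, adjusted p = 0.212). The empty droplets of Cre+ replicate 4 had Rbpj at 51.2 CPM.

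In mural cells 12 of the 39 were higher and 7 lower than in luminal cells, or 19 of 39 where 49.6% of all genes passed. Against endothelial cells 8 were higher and 13 lower, or 21 of 39 where 34% of all genes passed. Heyl, a relative of Hey1, had 176, 131, 160.3 and 53.2 CPM in mural cells and no UMI in endothelial cells. Taking 3 UMIs per library as the floor, it was at least 16.8-fold to 167-fold higher in mural cells of the single libraries. Nrarp had 139.6, 152, 93.4 and 7.02 CPM in mural cells and was higher than in luminal cells (4.75 ± 0.48, adjusted p = 9.82e-10), and did not pass against endothelial cells (-1.03 ± 0.42, adjusted p = 0.06). Dlk1, a ligand-like protein, had 125, 623, 102 and 5.01 CPM in mural cells, no UMI in endothelial and 2 in luminal cells. Dll4 gave 1 UMI and Mfng 2 in all mural cells. Dtx4, a Deltex protein, was higher than in endothelial cells (2.98 ± 0.37, adjusted p = 1.24e-07), as was Rbpj (1.00 ± 0.28, adjusted p = 0.00607), and Lfng was lower (-3.53 ± 0.81, adjusted p = 0.00084). Fbxw7 (-2.29 ± 0.25), Hes6 (-1.68 ± 0.29) and Rfng (-1.14 ± 0.30) were lower than in luminal cells, with adjusted p of 4.28e-09, 1.57e-05 and 0.00218. Against fibroblasts 5 were higher and 8 lower, or 13 of 39 where 30.1% of all genes passed, with Nrarp (7.06 ± 0.62, adjusted p = 2.39e-10) and Heyl (2.75 ± 0.39, adjusted p = 8.69e-06) among the higher, and Rbpj lower (-0.80 ± 0.26, adjusted p = 0.0214).

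**Figure D3:**
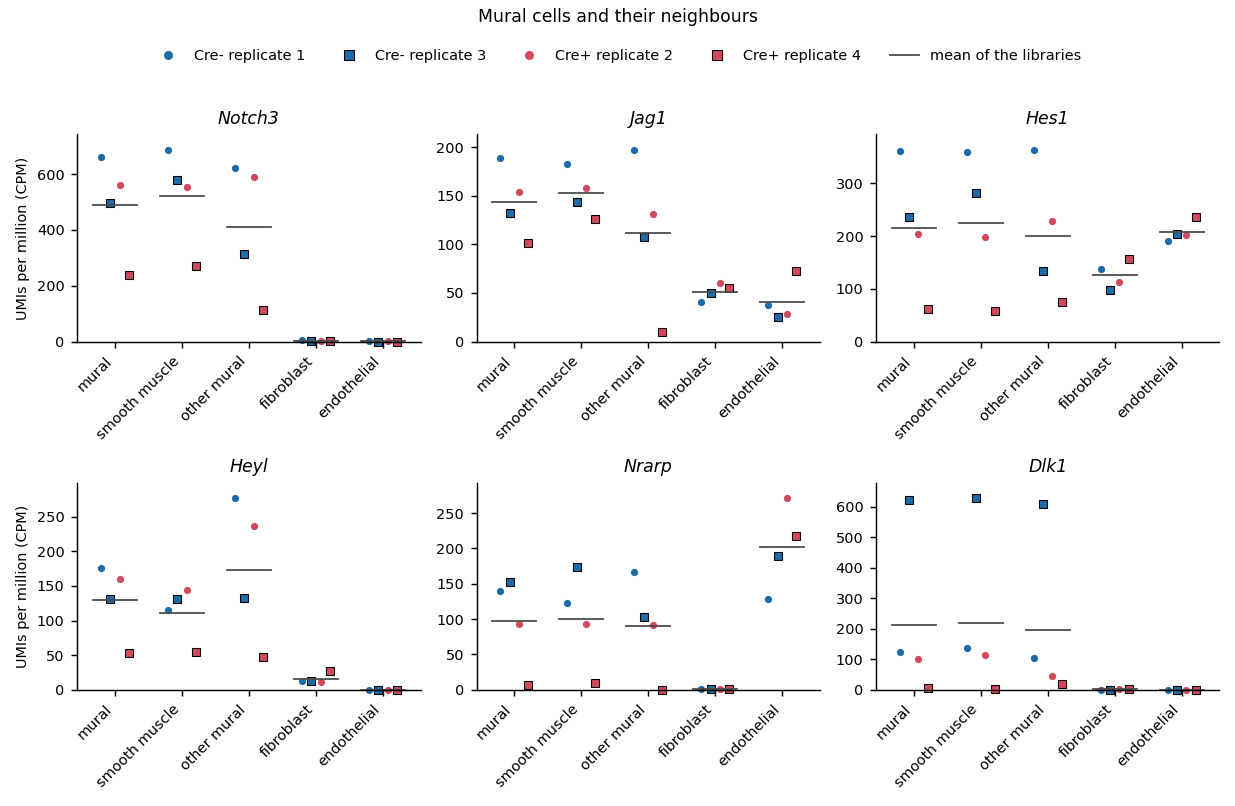
Levels of Notch3, Jag1, Hes1, Heyl, Nrarp and Dlk1 in CPM (linear axes from 0, each with its own range) in all mural cells, those with smooth muscle markers, the other mural cells, fibroblasts and endothelial cells. Points are libraries (blue Cre-, red Cre+, squares for replicates 3 and 4) and lines their means. In all mural cells Cre+ replicate 4 is the lowest point of each of the 6 genes.

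Within the mural class, 143 cells with at least 3 of 6 smooth muscle markers and the 92 others both held Notch3. The former had 687, 580.4, 554 and 270.0 CPM and the latter 622, 314, 589.8 and 113 CPM, which overlapped. Jag1 had 183, 144, 158 and 126 CPM and 197, 107, 131 and 9.44 CPM, the last from 2 UMIs. Hes1 had 361, 283, 199 and 57.3 CPM and 364, 133, 229 and 75.5 CPM. Deep cells reach 3 markers more easily, and the smooth muscle cells had medians of 14089 to 28477 UMIs against 8517 to 12653 in the others.

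Within the endothelium, cells with at least 2 of 6 markers of a subset, none of them among the 9 genes, numbered 75 arterial, 216 tip and 105 venous cells. Cre+ replicate 4 held 4 arterial and 1 venous cell, so their values rest on 3 libraries and are described without a test. Hey1 had 197, 153 and 179 CPM in arterial, 67.3, 67.0, 46.6 and 60.5 CPM in tip and 4.87, 1.77 and 12.3 CPM in venous cells, the last from 5, 1 and 3 UMIs. The 3 ranges did not overlap, and the share of all genes for which this holds was not counted. After thinning 18.2, 21.4 and 19.1% of arterial cells held a Hey1 UMI and 0 of the venous cells did, which for the 61 venous cells of Cre- replicate 1 allows up to 4.92%. The 26 venous cells of Cre- replicate 3 and the 17 of Cre+ replicate 2 allow higher shares, so the difference is less certain there. Without thinning the shares were 57.1 to 67.9% and 3.85 to 17.6%.

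**Figure D4:**
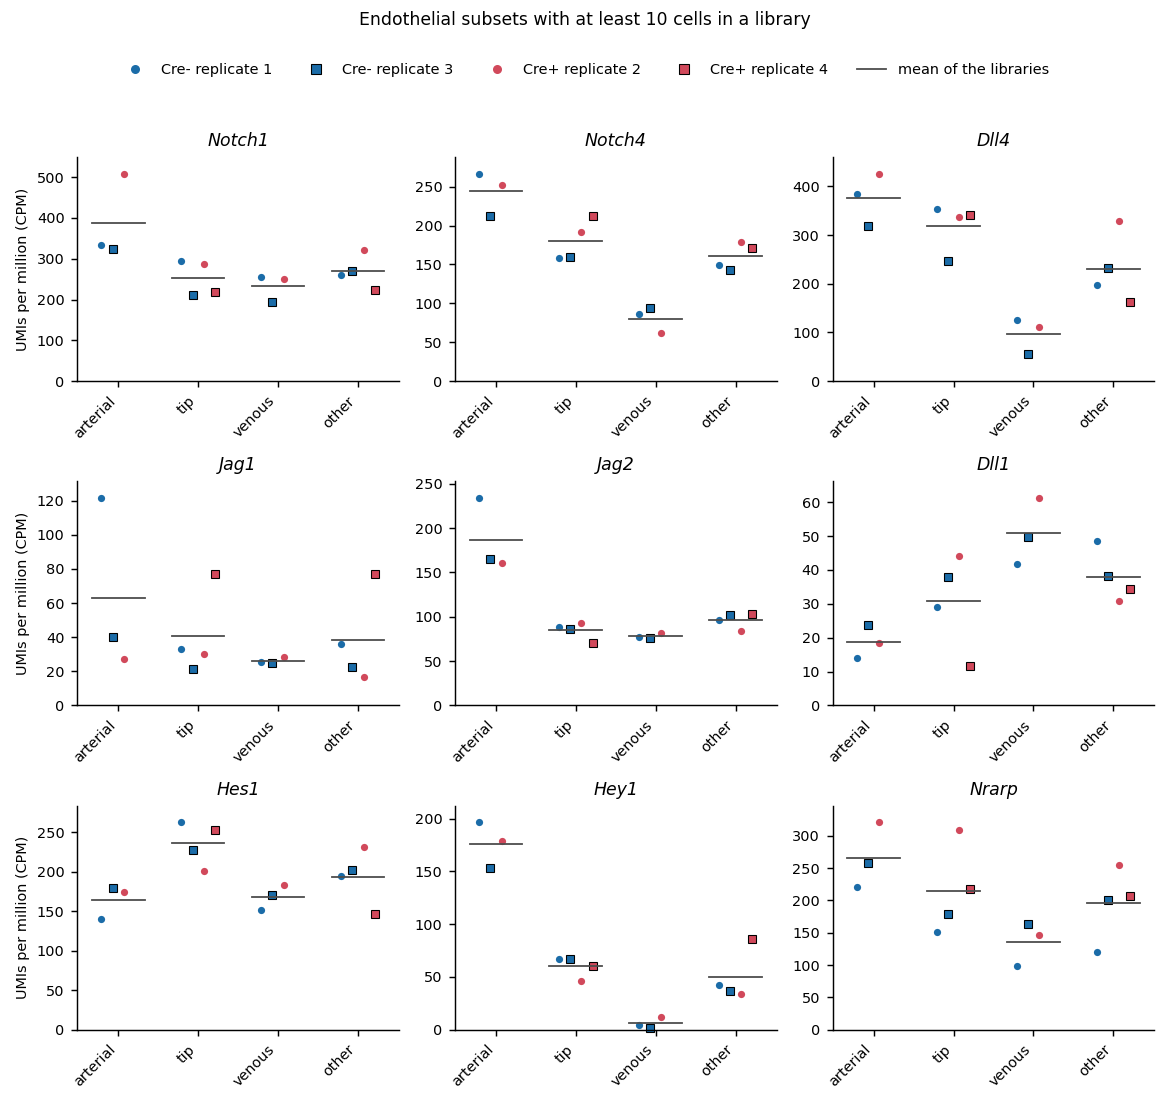
Levels of 9 genes in CPM (linear axes from 0, each with its own range) in arterial, tip, venous and other endothelial cells. Points are libraries with at least 10 such cells (blue Cre-, red Cre+, squares for replicates 3 and 4) and lines their means. Hey1, Notch4, Dll4 and Jag2 are highest in arterial cells, and Dll1 is lowest there, in the 3 libraries with a value.

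Notch4 had 267, 212 and 252 CPM in arterial and 85.7, 93.9 and 61.3 CPM in venous cells. Jag2 had 234, 165 and 160.4 CPM and 77.0, 76.2 and 81.7 CPM, and Notch1 332, 323 and 509 CPM and 255, 195 and 249 CPM. The ligand Dll4 had 384, 319 and 426 CPM and 126, 56.7 and 110.3 CPM. Each was higher in arterial cells without overlap in these 3 libraries, and the share of all genes without such overlap was not counted. Dll1 was in the opposite order, with 14.0, 23.6 and 18.3 CPM in arterial and 41.9, 49.6 and 61.3 CPM in venous cells, from 3 to 43 UMIs per value. Hes1 overlapped between them, at 140.4 to 179 and 152 to 184 CPM, and was 201 to 263 CPM in tip cells. Arterial cells were shallower than venous cells in each of the 3 libraries, with medians of 6953, 11304 and 8211 against 13935, 19326 and 13415 UMIs, and the part of depth in these levels was not tested.

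In basal against luminal cells 9.78% of all genes passed, and of the 9 genes the 3 ligands were higher in basal cells and Notch3 was lower, with a median log2 fold change of 0.04 (-0.20 over all genes). Jag2 (4.17 ± 0.44, adjusted p = 3.11e-07) passed in all 12 alternatives. Jag1 (1.73 ± 0.38, adjusted p = 0.00263) missed the threshold without Cre+ replicate 4 (adjusted p = 0.0574). Dll1 (2.33 ± 0.71, adjusted p = 0.0358) missed it in 5 alternatives, among them without Cre- replicate 1 (adjusted p = 0.290), Cre- replicate 3 (0.111) and Cre+ replicate 4 (0.413). Notch3 (-1.14 ± 0.34, adjusted p = 0.0307) missed it in 7, among them without Cre- replicate 1 (0.205), Cre+ replicate 2 (0.116) and Cre+ replicate 4 (0.176). Of the calls over all genes 59.1% were higher in basal cells, 87.6% with the size factors of DESeq2 in edgeR and 85.8% with DESeq2. The number of calls fell from 1317 to 509 without Cre- replicate 1 and to 615 without Cre+ replicate 4. Basal cells numbered 24, 38, 15 and 216, with medians of 21018 to 54769 UMIs. Luminal markers summed to 5067, 5620, 5266 and 1702 CPM in them, and to 10580, 5717, 7014 and 8007 CPM in luminal cells. Basal markers summed to 2026, 1325, 735 and 6256 CPM in basal cells and to 61.8 to 473 CPM in luminal cells. In Cre- replicates 1 and 3 and Cre+ replicate 2 luminal exceeded basal marker UMIs in the basal class, so its name is less certain there. Fibroblast markers summed to 747, 182, 267 and 1709 CPM in basal cells (11.3 to 68.4 CPM in luminal cells). The part of these markers in the basal calls was not tested. With only cells under 30000 UMIs and 5000 genes, the mean basal level of Jag2 over the libraries left was 125 instead of 37.6 CPM and that of Notch1 31.7 instead of 75.2 CPM. The libraries left are not named here, so these means do not separate a change of libraries from a change within them. Of 39 other pathway genes 3 were higher and 1 was lower, near the 9.78% of all genes that passed. Lfng (2.31 ± 0.44), Neurl1b (2.31 ± 0.41) and Numbl (1.44 ± 0.32) were higher and the γ-secretase subunit Psenen was lower (-0.51 ± 0.14), with adjusted p of 0.000469, 0.000296, 0.00333 and 0.0212. Their alternatives are not given here.

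Luminal cells with at least 3 markers of hormone-sensing cells, which carry estrogen and progesterone receptors, numbered 375, 18, 102 and 11. The 11 cells of Cre+ replicate 4 went against this name. They held no Pgr UMI (33.0 to 150 CPM in the other libraries), and Foxa1 was 2.39 CPM (71.6 to 197), Cited1 7.18 CPM (264 to 690) and Prlr 71.8 CPM (677 to 1794). Results of the 9 genes are therefore given with and without that library. Against all other luminal cells 9.07% of 14384 genes passed, 40.8% of them higher (55.3% with DESeq2). Of the 9 genes 1 was higher and 3 were lower, with a median log2 fold change of -0.30 (-0.05 over all genes). Jag1 had 24.1, 9.63, 43.4 and 7.18 CPM in hormone-sensing and 5.02, 2.80, 3.69 and 5.34 CPM in progenitor cells, the most numerous subset with markers, and was higher than in all other luminal cells (2.40 ± 0.45, adjusted p = 0.0185). Dll1 (-2.33 ± 0.32, adjusted p = 0.00812), Hey1 (-1.34 ± 0.30, adjusted p = 0.0323) and Notch1 (-0.72 ± 0.15, adjusted p = 0.0275) were lower. Notch3 did not pass (1.01 ± 0.29, adjusted p = 0.068). Without Cre+ replicate 4, Jag1 (2.74, adjusted p = 0.00282), Dll1 (-2.34, adjusted p = 0.00219), Hey1 (-1.46, adjusted p = 0.0126) and Notch1 (-0.71, adjusted p = 0.0167) kept their calls and Notch3 passed (1.23, adjusted p = 0.00274), as it also did with only cells under 30000 UMIs and 5000 genes (0.94, adjusted p = 0.0139).

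None of these 4 calls held in every alternative. Without the library block the adjusted p was 0.0502 for Jag1, 0.510 for Dll1, 0.488 for Hey1 and 0.562 for Notch1. Without Cre- replicate 1 it was 0.104 for Jag1, 0.195 for Hey1 and 0.0804 for Notch1, without Cre- replicate 3 0.0721 for Notch1, and without Cre+ replicate 2 0.0916 for Jag1, 0.165 for Dll1, 0.175 for Hey1 and 0.125 for Notch1. With only cells under the upper limits on UMIs and genes named above, where Notch3 passed, Notch1 missed the threshold (-0.62, adjusted p = 0.0724). Hey1 missed it with DESeq2 (-1.15, adjusted p = 0.0589). The number of genes called, 1304, became 213, 757, 279 and 2508 when each library was left out in turn, in the order above. Hormone-sensing cells were deep, with medians of 31007 to 42074 UMIs. Of 39 other pathway genes 4 were higher and 2 lower, where 9.07% of all genes passed. Among the higher were Neurl1b (3.00 ± 0.64), Lfng (1.92 ± 0.46) and the protease Adam10 (1.46 ± 0.36). The coactivator Maml2 (-1.51 ± 0.31) and Fbxw7 (-0.60 ± 0.13) were lower, with adjusted p of 0.0294, 0.0398, 0.0445, 0.0269 and 0.0303 in this order. These values come from the fit that includes Cre+ replicate 4, and their alternatives are not given here.

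**Figure D5:**
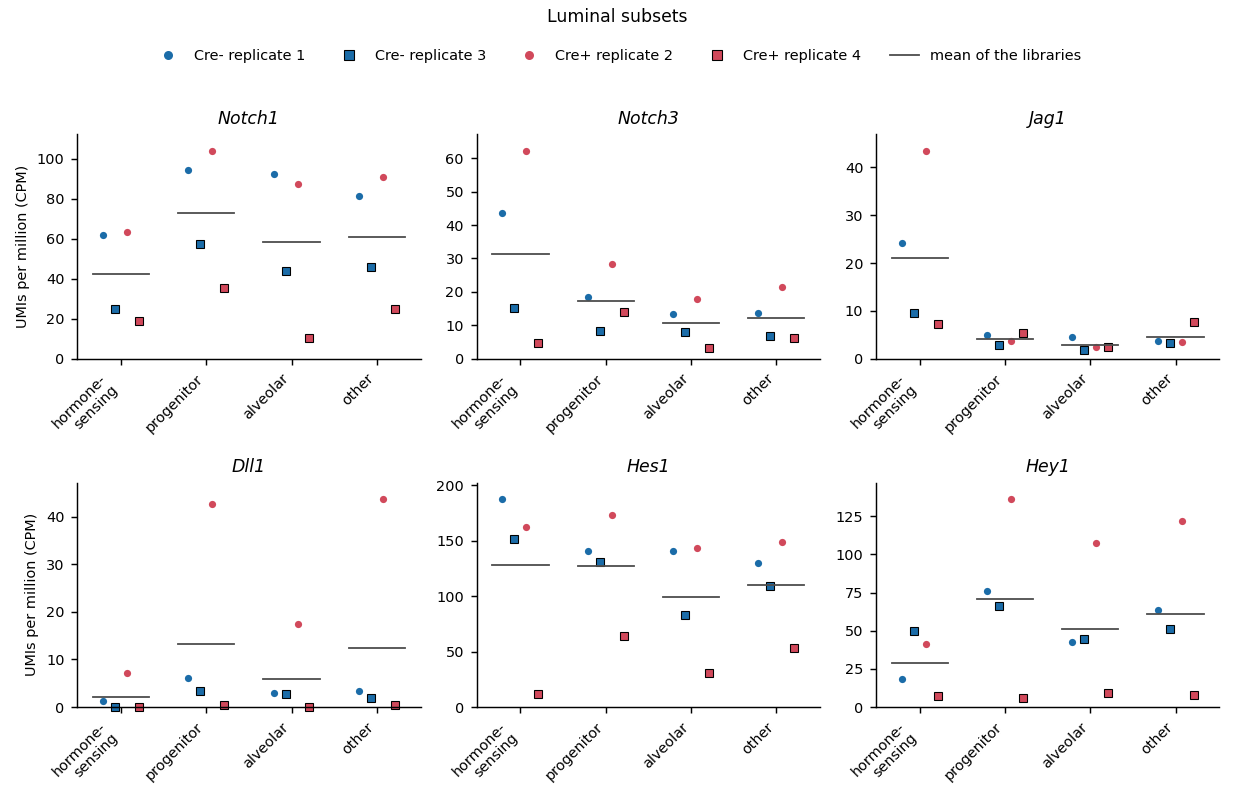
Levels of 6 genes in CPM (linear axes from 0, each with its own range) in hormone-sensing, progenitor, alveolar and other luminal cells. Points are libraries (blue Cre-, red Cre+, squares for replicates 3 and 4) and lines their means. Jag1 is highest in hormone-sensing cells in 3 libraries, and Cre+ replicate 4 is the lowest point of Hes1 and Hey1 in every subset.

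The library differences recurred in the luminal subsets. Hey1 had 76.1, 66.4, 136 and 5.72 CPM in progenitor, 42.5, 44.5, 108 and 9.02 CPM in alveolar and 63.3, 51.2, 122 and 8.00 CPM in other luminal cells. In each, Cre+ replicate 2 was highest and Cre+ replicate 4 lowest. Dll1 had 6.16, 3.36, 42.7 and 0.476 CPM in progenitor and 3.31, 1.99, 43.6 and 0.344 CPM in other luminal cells, again highest in Cre+ replicate 2. Being numerous, luminal cells held 94.9, 89.6, 95.5 and 76.4% of the Hey1 UMIs of the classed cells. They also held 69.1, 49.3, 73.8 and 71.2% of the Notch3 UMIs, although the Notch3 level was higher in mural cells.

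Cre+ and Cre- mice were compared within 4 classes, to ask whether the genotype went with a change of these genes in luminal cells or in the stroma. Basal cells were not compared between genotypes, so these tests do not cover all of the epithelium. The edgeR test called 0% of the genes tested in luminal, endothelial, mural and fibroblast cells and 0% in the test of whether the genotype effect differed between endothelial and luminal cells. In the edgeR test an unadjusted p under 0.05 was found for 364 of 16054 genes in luminal, 416 of 10088 in endothelial and 316 of 8333 in mural cells. For fibroblasts it was 665 of 12536 and for the difference between classes 520 of 14493. DESeq2 called 64, 10, 3, 70 and 9 genes in the same order. Of the 9 genes, 9, 7, 5, 8 and 9 were tested.

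In luminal cells Dll1 had a log2 fold change (Cre+ against Cre-) of 2.40 ± 1.76 (adjusted p = 0.9996), which was -2.96 without Cre+ replicate 2. Hey1 had 0.11 ± 1.20, which was -3.05 without Cre+ replicate 2 (adjusted p = 0.109). For Dll1, Hey1, Hes1 and Notch1 the Cre+ values lay on both sides of the Cre- values. Hes1 (-0.25 ± 0.46), Notch1 (-0.08 ± 0.54), Notch2 (-0.15 ± 0.25), Notch3 (0.38 ± 0.66), Notch4 (-0.70 ± 0.54), Jag1 (0.11 ± 0.60) and Jag2 (-0.01 ± 0.69) did not pass. Frmd8 itself had -1.43 ± 0.42 (unadjusted p = 0.0223, adjusted p = 0.9996).

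In endothelial cells Notch4 was lower in both Cre- than in both Cre+ mice (values above) and did not pass (0.42 ± 0.19, adjusted p = 0.994). The Cre- and Cre+ values of Notch1, Jag1, Jag2, Dll1, Hes1 and Hey1 overlapped in these cells. The share of all genes that separate the mice as Notch4 does was not counted. Venous cells, where Notch4 was lower than in arterial cells, numbered 61, 26, 17 and 1 of 186, 177, 139 and 83 endothelial cells. Their part in the Notch4 difference was not tested. A Notch4 UMI was held by 14.1% ± 1.66 (SD, n = 2) of thinned endothelial cells without Cre and by 20.6% ± 1.60 (SD, n = 2) of those from mice with Cre, with p = 0.333 in a two-sided exact permutation test, the smallest p that 2 against 2 allows. The difference of the Notch4 effect between endothelial and luminal cells was 1.10 ± 0.39 (adjusted p = 1). Notch1 (0.14 ± 0.19), Jag1 (0.64 ± 0.45), Jag2 (-0.12 ± 0.19), Dll1 (-0.34 ± 0.34), Hes1 (0.16 ± 0.19) and Hey1 (0.21 ± 0.24) did not pass (adjusted p = 0.9999 each), and Notch2 and Notch3 had too few UMIs for the test. Among the other pathway genes Dll4 (0.51 ± 0.17) and Nrarp (0.63 ± 0.24) did not pass in endothelial cells (adjusted p = 0.994 and 0.994).

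In mural cells Hes1 (-1.17 ± 0.50), Notch1 (-0.82 ± 0.37), Notch3 (-0.53 ± 0.39), Jag1 (-0.31 ± 0.30) and Notch2 (-0.08 ± 0.67) did not pass (adjusted p = 0.995 each). Without Cre+ replicate 2, Hes1 (-2.21, adjusted p = 8.42e-06), Notch1 (-1.45, adjusted p = 0.00590) and Notch3 (-1.21, adjusted p = 0.0277) did. That fit holds Cre+ replicate 4 alone, assumes that it varies like the other group, and rests on the library whose mural class held fewer mural and more fibroblast marker UMIs. In fibroblasts Dll1 (-1.22 ± 0.88), Notch1 (-0.91 ± 0.34) and Jag1 (0.38 ± 0.15) did not pass, with adjusted p of 0.969, 0.912 and 0.918. Hes1 (0.23 ± 0.23), Hey1 (-0.08 ± 0.42), Notch2 (-0.01 ± 0.16), Notch3 (-0.55 ± 0.61) and Notch4 (0.57 ± 0.54) did not pass either, and Jag2 was not tested.

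Genes with the most similar pattern were ranked by Pearson's r of log2(CPM + 1) over 36 sums, 9 classes in 4 libraries, among 16262 genes. The sums share mice and libraries, and r is a description. Notch3 was most like Pakap (0.923), Ccdc68 (0.910) and Mnd1 (0.903), and Notch4 most like Bcl6b (0.922), Nova2 (0.915) and Plvap (0.911), the last an endothelial marker used for the classes. The gene most like Jag1 was Plcl1 (0.922), for Hes1 Arhgef12 (0.919), for Jag2 Sh2d5 (0.915), for Hey1 Cracr2b (0.897), for Dll1 Vwa1 (0.866) and for Notch2 Arap1 (0.815). Among the 9 genes Dll1 and Hey1 (0.818) and Dll1 and Jag2 (0.796) had the highest r, and Notch2 and Notch4 the lowest (-0.784).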

How the data were processed

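Tumor cells of 4 mice (Cre- replicates 1 and 3, Cre+ replicates 2 and 4) were sequenced with the 10x 3′ kit, and the deposited UMI counts per gene and barcode were made by the authors with Cell Ranger, version 6.1.2 for 3 libraries (called cells) and Cell Ranger 4 for Cre+ replicate 4 (all 2582424 barcodes), per the file headers. The labels name the build hg38, but the gene identifiers are mouse, so no coordinates of the files were used. Barcodes with at least 1000 UMIs and at most 20% mitochondrial UMIs were kept. A class needed at least 3 of its 8 markers and 2 more than any other class, which leaves out cells with markers of 2 classes, and no doublet caller was run. Subset gates depend on depth. Counts were summed per library and class (at least 10 cells) and tested with edgeR 4.0.16 in R 4.3.3 (quasi-likelihood, TMM, filterByExpr, Benjamini-Hochberg, threshold 0.05), with the library as block between classes, since all classes of a library came from 1 mouse. Standard errors are the log2 fold change divided by the square root of F. DESeq2 1.42.0 was an alternative. Intervals (95%, exact) and floors (3 counts for a 0) cover counting error only. Shares were taken after thinning each cell to 1000 UMIs (Python 3.11.15, numpy 2.4.6, scipy 1.17.1, pandas 2.3.3). The edgeR test was run on simulated counts with the same spread for all genes. Of genotype changes of 1 on the log2 scale it called 25, 10.4 and 6.9% in luminal, endothelial and mural cells. For changes of 2 the shares were 98, 82.5 and 69.7%. The simulated spread was a fixed value and was not estimated from these libraries. In the real luminal counts the genotype change of Dll1 had a standard error of 1.76 and that of Hey1 1.20. The shares therefore do not give the chance of a call in these data. The alternatives were other size factors, no filter on low counts, a stricter gate (4 markers, lead of 3), at least 2000 UMIs, upper limits of 30000 UMIs and 5000 genes, cell calling in Cre+ replicate 4 above 10978 UMIs, no block and leaving out each library. All 9 genes are named; of the 46 other pathway genes, Dll4, Rbpj, Nrarp, Heyl and Lfng and up to 3 of the largest and 3 of the smallest called changes per class comparison. The members and lists were chosen with earlier results of these data known. UMI counts are not compared between genes.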

Additional observations from a re-analysis of the deposited data

Results flagged for a closer look

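Levels were screened in endothelial, mural, luminal, fibroblast and basal cells only. Of these, 28 had a mean of at least 10 CPM over the 4 libraries, both genotypes together. In 4 of the 28, a library had a gap to the others above Dixon's 95% critical value, and chance alone flags about 1 in 20. The screen used the CPM values only and took no account of counting error. Jag2 in endothelial cells was 78.97 CPM in Cre+ replicate 4 and 96.22 to 97.95 CPM in the others. In Cre+ replicate 4, with 83 endothelial and 216 basal cells, endothelial cells held 10.1% and basal cells 54.4% of the 743 Jag2 UMIs of the classed cells. These shares depend on the numbers of cells and are not levels. Dll1 in endothelial cells was 16.85 CPM in Cre+ replicate 4 and 37.57 to 39.62 CPM in the others. Dll1 in luminal cells was 39.15 CPM in Cre+ replicate 2 and 0.4219 to 4.406 CPM in the others. Hey1 in basal cells was 9.228 CPM in Cre+ replicate 4 and 50.72 to 56.98 CPM in the others.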

How the results depend on the processing

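Of 1061 member log2 fold changes under an alternative, 997 kept their side of the threshold, 47 lost and 17 gained a call, and none of the called values turned its direction, while 69 uncalled values changed sign. Of 648 levels 17 moved by more than 1 SD, 16 of them under the upper limits on UMIs and genes, and of 729 shares 78 moved, 74 of them without thinning. Counts of called genes moved by more than 1.5 times in 28 of 127 cases. Leaving out 1 library gave 509 to 1171 genes in basal against luminal cells and 213 to 2508 in hormone-sensing against other luminal cells. Between genotypes it gave 0 to 11 genes in luminal, 0 to 68 in endothelial, 0 to 544 in mural and 0 to 1 in fibroblast cells and 1 to 152 for the interaction. DESeq2 called 64 genes in luminal, 10 in endothelial, 3 in mural and 70 in fibroblast cells and 9 for the interaction, where edgeR called 0. Without a filter on low counts edgeR called 192 in endothelial, 153 in mural and 549 in fibroblast cells and 38 for the interaction, and then Hes1 in mural cells (-1.18, adjusted p = 0.0227) and Notch1 in fibroblasts (-0.90, adjusted p = 0.0127) passed. Hey1 passed the interaction without Cre+ replicate 2 (3.39, adjusted p = 0.00472), a fit in which the only Cre+ library is assumed to vary like the Cre- libraries. The cause of these changes was not tested. Without the replicate block the comparison of hormone-sensing cells gave 185 genes, and the counts of the other 5 class comparisons stayed within 1.5 times. Without that block Hes1 (adjusted p = 0.0837) and Dll1 (0.110) lost their calls in endothelial against luminal cells, Notch2 in mural against luminal cells (0.0556), where Dll1 gained one (0.0313), and Dll1 (0.431) and Notch3 (0.0606) in basal against luminal cells. No paired analysis was run because the labels do not say which Cre- and Cre+ mice, if any, belong together. With 2 mice per genotype, a missed threshold does not show that a gene did not differ.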
